A study of Mus musculus with 6 samples.

Results

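Mouse vascular smooth muscle cells were profiled for 39 genes of the antioxidant, thioredoxin, glutathione and iron systems, out of 54532 genes in the deposited expression table. The 39 genes are a list of names, grouped by what their products do, and the list sets no threshold on a measured value. All 39 passed the filter on low values used for testing, a mean of at least 0.5 FPKM (fragments per kilobase of gene, scaled to the size of the library) over the 6 libraries.

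These systems handle the superoxide and peroxide that mitochondria and oxidases release. Superoxide dismutases turn superoxide into hydrogen peroxide, and catalase, the peroxiredoxins and the glutathione peroxidases remove the peroxide, drawing on reduced thioredoxin or glutathione. The transcription factor NRF2, held back by KEAP1, drives many of these genes through the antioxidant response element, TXNIP binds and inhibits thioredoxin, and ferritin keeps iron away from peroxide. In the vessel wall the extracellular superoxide dismutase is a known product of smooth muscle.

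The cells were mouse aortic smooth muscle cells, isolated by collagenase from abdominal aortas of wild-type mice aged 10 weeks and used at passages 4 to 8. They received an adenovirus with a control plasmid (Ad-Con, genotype label WT, 3 libraries) or with pyruvate dehydrogenase kinase 4 (Ad-PDK4, genotype label PDK4 overexpression, 3 libraries). Both groups were then given angiotensin II at 1 µM for 48 h, a step that the labels do not mention. No libraries without virus were analysed here. The study calls the libraries biological replicates, but nothing in the labels says that those of a group came from separate cultures, so the p-values measure the spread between these libraries.

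The libraries held 17588942 to 21861872 reads in genes. The label itself was checked on Pdk4, which measured 9.50, 10.4 and 10.1 FPKM in Ad-Con and 7.67, 7.40 and 7.38 FPKM in Ad-PDK4. Its level was thus lower, not higher, in the libraries labelled Ad-PDK4 (log2 fold change -0.42, SE 0.06, limma adjusted p = 0.0011), and every direction below refers to the libraries as labelled. The full sequence of the PDK4 carried by the virus is not given in the sources used here. The study's methods give primers for cloning PDK4 into a plasmid, and its supplement lists the same pair for mouse PDK4. Whether reads from the virus would be counted under the mouse gene was not tested. Acta2, the smooth muscle actin, was abundant at 78.0 ± 0.950 FPKM in Ad-Con and 36.2 ± 2.40 FPKM in Ad-PDK4 (SD, n = 3), but Myh11, the defining smooth muscle myosin, had only 2 to 10 reads in any library and Tagln 4 to 20. The summed level of 8 smooth muscle markers was 87.8 to 89.4 FPKM in Ad-Con and 43.3 to 48.1 FPKM in Ad-PDK4, most of it from Acta2. Smtn was at 8.32 ± 0.114 and 8.44 ± 0.445 FPKM (limma adjusted p = 0.839). Lmod1 was at 0.720 ± 0.0944 and 0.570 ± 0.0679 FPKM (limma adjusted p = 0.357). Cnn1, Mylk and Des, low and not tested, had the lower values in Ad-PDK4. The 6 fibroblast markers summed to 1264 to 1357 FPKM in Ad-Con and 670 to 745 FPKM in Ad-PDK4. Col1a1 carried most of the fibroblast sum (1056 ± 42.4 and 435 ± 49.5 FPKM), while Dcn was higher in Ad-PDK4 (90.1 ± 8.20 and 161 ± 19.0 FPKM) and Pdgfra was at 20.5 ± 0.729 and 19.9 ± 0.804 FPKM. Col3a1 (134 ± 5.89 and 73.9 ± 2.81 FPKM), Thy1 (17.2 ± 1.07 and 9.49 ± 1.31 FPKM) and Lum (7.46 ± 0.728 and 3.31 ± 0.659 FPKM) were lower in Ad-PDK4. Of 10 macrophage markers, 3 had more than 3 reads in a library of either group (summed level 15.0 to 17.9 FPKM in Ad-Con and 5.91 to 7.44 FPKM in Ad-PDK4), and Ptprc, Tyrobp, C1qa, C1qb and C1qc were at 0 in every library. Of these 3, Cd68 was lower in Ad-PDK4 (14.2 ± 1.78 and 4.24 ± 0.991 FPKM), while Csf1r (0.258 ± 0.143 and 0.640 ± 0.0804 FPKM, not tested) and Lyz2 (1.51 ± 0.195 and 1.98 ± 0.250 FPKM, limma adjusted p = 0.0791) had the higher values there. The 7 endothelial markers summed to 0.617 to 0.798 FPKM in Ad-Con and 0.885 to 1.18 FPKM in Ad-PDK4, with Tie1 and Emcn at 0. Kdr carried most of this sum (0.536 ± 0.110 and 0.919 ± 0.199 FPKM, limma adjusted p = 0.0645). Pecam1 (0.101 and 0.0651 FPKM) and Vwf (0.0585 and 0.0327 FPKM), not tested, had the lower means in Ad-PDK4. Cdh5 and Tek had at most 4 reads in any library. The share of summed FPKM in mitochondrially encoded genes was 6.13 to 6.53% in Ad-Con and 2.61 to 3.60% in Ad-PDK4. Several of these markers, in both directions, and this share differed between the groups, and their part in the results below was not tested. Fewer cells of a type and less RNA per cell cannot be told apart in such bulk libraries.

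The promoter letters that NRF2 and its small MAF partners read were looked up first, because the NRF2 axis orders the results. Promoters, 250 bases before to 50 after the start site, were taken from RefSeq (GRCm38.p6) for 33 of the 39 genes (not for Hmox1, Gclc, Gsr, Gsta4, Prdx6 and Sod3). The core of the antioxidant response element, TGACNNNGC on either strand, was present in a promoter of 7 of the 33 (21.2%), against 14.0% of 27025 genes with promoters in the same table. Other letters searched in the same promoters were not more frequent in the 33 genes. Those of the metal response element, TGCNCNC, were in 51.5% of the 33, against 53.6% of the 27025. The interferon-response letters GAAANNGAA were in 9.09%, against 9.76%, and the kappaB-like letters GGGNNTTCC in 6.06%, against 6.58%. The stretches around the TGACNNNGC core are shown for all 7 genes, whose levels are described below. They run 5′ to 3′ in the direction of the gene, with the core in capitals.
Nfe2l2 (chr2:75704855-75704913, minus strand): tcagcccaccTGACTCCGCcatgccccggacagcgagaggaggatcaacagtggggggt
Prdx1 (chr4:116685426-116685514, plus strand): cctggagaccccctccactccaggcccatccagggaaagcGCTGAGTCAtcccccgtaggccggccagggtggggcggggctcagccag
Sod1 (chr16:90220666-90220754, plus strand): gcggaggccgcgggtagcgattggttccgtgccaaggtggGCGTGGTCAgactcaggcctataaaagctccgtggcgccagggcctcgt
Srxn1 (chr2:152105512-152105573, plus strand): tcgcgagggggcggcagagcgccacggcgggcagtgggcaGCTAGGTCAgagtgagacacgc
Gclm (chr3:122245383-122245471, plus strand): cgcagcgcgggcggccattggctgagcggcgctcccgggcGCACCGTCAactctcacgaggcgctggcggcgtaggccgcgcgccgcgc
Txnrd1 (chr10:82859074-82859162, plus strand): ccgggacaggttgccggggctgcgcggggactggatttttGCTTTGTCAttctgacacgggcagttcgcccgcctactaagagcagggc
Mt2 (chr8:94172499-94172587, plus strand): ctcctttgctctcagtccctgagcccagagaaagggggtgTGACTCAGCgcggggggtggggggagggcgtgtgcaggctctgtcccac
Of the 7 genes with the core, Nfe2l2 was higher in Ad-PDK4, Prdx1 and Sod1 were lower, and Srxn1, Gclm, Txnrd1 and Mt2 did not pass the test. The letters were therefore found in promoters of genes with either direction and with none. Letters farther from the start site were not searched, so a gene without the core here, such as Nqo1, could hold it elsewhere.

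A further sequence belongs to Txnip, whose promoter is read by the glucose-sensing factors MondoA (Mlxip) and Mlx. Their carbohydrate response element consists of a pair of short sites, CACGNG or its complement CNCGTG, with 5 bases between them. This motif was chosen with the values of these genes already known. Among the 33 promoters the pair was found in Txnip alone, where it began at position -85 from the start site, and it occurred in 26 of 27025 genes (0.0962%). The 250 bases before the start site are shown with the pair in capitals.
Txnip (chr3:96557707-96557956, plus strand, GRCm38.p6): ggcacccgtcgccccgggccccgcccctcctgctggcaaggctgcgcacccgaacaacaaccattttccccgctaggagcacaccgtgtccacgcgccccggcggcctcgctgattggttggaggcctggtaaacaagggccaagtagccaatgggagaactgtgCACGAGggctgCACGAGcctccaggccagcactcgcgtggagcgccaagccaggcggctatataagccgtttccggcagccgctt

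Over the 39 genes, 17 were lower in Ad-PDK4 and 5 were higher at a limma adjusted p below 0.05, and 17 did not pass the test. Across all 13423 genes tested, 20.8% were lower and 21.8% were higher, so the 17 lower genes stood above the share of all genes and the 5 higher ones below it. The median log2 fold change was -0.09 over the 39 genes and -0.003 over all tested genes, while the median size without regard to sign was 0.267 and 0.252. With a fold of at least 2 required, Sod3 was higher (background 3.95%) and Nqo1 was lower (background 2.68%). The libraries of the groups did not overlap for 26 of the 39 genes, against 54.3% of all tested genes.

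**Figure D1:**
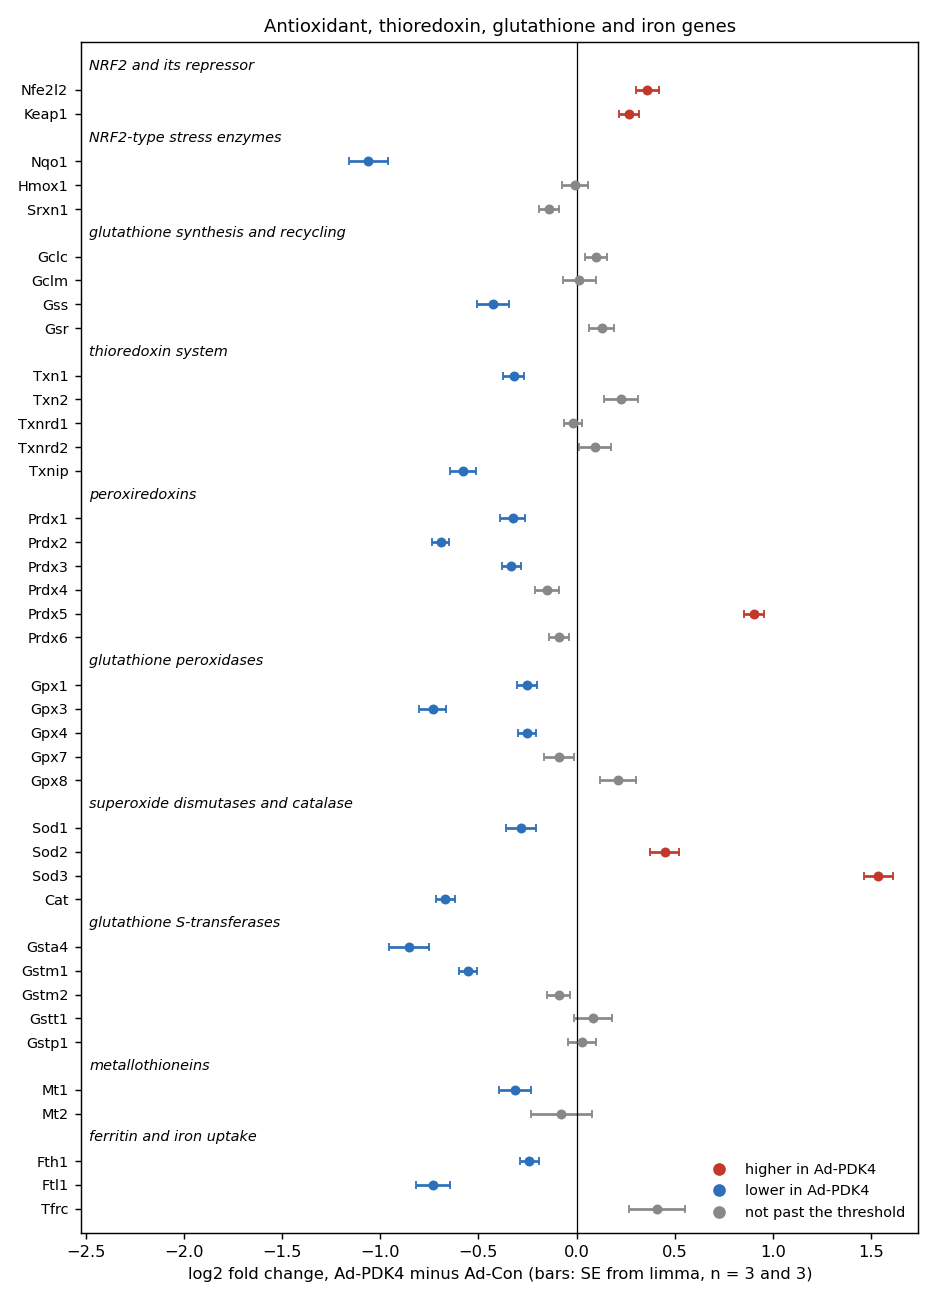
Log2 fold change of each of the 39 genes, Ad-PDK4 minus Ad-Con, on the log2(FPKM + 0.1) scale, with bars for the limma SE (3 libraries per group) and colour for the call at an adjusted p below 0.05. The red points are Nfe2l2, Keap1, Prdx5, Sod2 and Sod3, and the 17 blue points lie to the left of 0.

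Nfe2l2, which encodes NRF2, measured 46.3, 44.2 and 44.6 FPKM in Ad-Con and 56.6, 54.8 and 62.1 FPKM in Ad-PDK4. Each Ad-PDK4 library lay above each Ad-Con library. The log2 fold change was 0.36 with an SE of 0.06 (limma adjusted p = 0.00197). Keap1, the adaptor that hands NRF2 to a ubiquitin ligase, measured 18.7, 18.5 and 19.1 FPKM against 23.5, 22.3 and 22.0 FPKM. It too was higher in all 3 Ad-PDK4 libraries, by 0.27 ± 0.05 (SE) on the log2 scale (limma adjusted p = 0.00404), so the factor and its repressor rose together. Part of the Keap1 exon sequence, 10.9%, lies opposite the antisense gene Gm16754 (0.392 and 0.542 FPKM), and whether the counting used strand is not given in the sources used here.

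Of 3 stress enzymes best known as NRF2 products, 1 fell (background 20.8%) and 2 did not pass the test. Nqo1, the quinone reductase commonly used as a readout of NRF2, measured 10.6, 8.40 and 10.3 FPKM in Ad-Con and 4.32, 4.78 and 4.72 FPKM in Ad-PDK4. All Ad-PDK4 libraries lay near the same low level, with no overlap. Nqo1 fell by 1.06 on the log2 scale (SE 0.10, limma adjusted p = 0.000112), a level 2.12-fold lower. Without the first Ad-Con library the log2 fold change was -0.999, just short of the fold of 2, with the call kept. Hmox1, the inducible heme oxygenase, was among the more abundant genes at 271, 237 and 281 FPKM in Ad-Con and 262, 266 and 255 FPKM in Ad-PDK4. Its groups overlapped, and its log2 fold change of -0.01 ± 0.07 (SE) did not pass the test (limma adjusted p = 0.929) and changed sign under other settings. Srxn1, which repairs over-oxidised peroxiredoxins, was at 39.9 ± 0.894 and 36.2 ± 1.72 FPKM (SD, n = 3; limma adjusted p = 0.0621).

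Of 4 genes of glutathione synthesis and recycling, 1 fell (background 20.8%) and 3 did not pass the test. Gclc and Gclm, the subunits of the rate-limiting ligase, were at 27.9 ± 1.52 and 8.95 ± 0.626 FPKM in Ad-Con and at 29.8 ± 0.709 and 9.05 ± 0.759 FPKM in Ad-PDK4 (SD, n = 3). Gsr, the reductase that restores reduced glutathione, was at 15.8 ± 0.835 and 17.2 ± 0.951 FPKM. Their log2 fold changes lay between 0.01 and 0.13 (limma adjusted p from 0.155 to 0.91), and that of Gclm changed sign under quantile normalization. Gss, which adds the last amino acid of glutathione, measured 5.69, 5.38 and 5.88 FPKM against 3.92, 4.54 and 4.08 FPKM, with no overlap. Gss fell by 0.43 on the log2 scale (SE 0.08, limma adjusted p = 0.00405). Acss2, whose exons lie opposite 6.68% of the Gss exon bases, also fell, by 0.84 on the log2 scale.

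**Figure D2:**
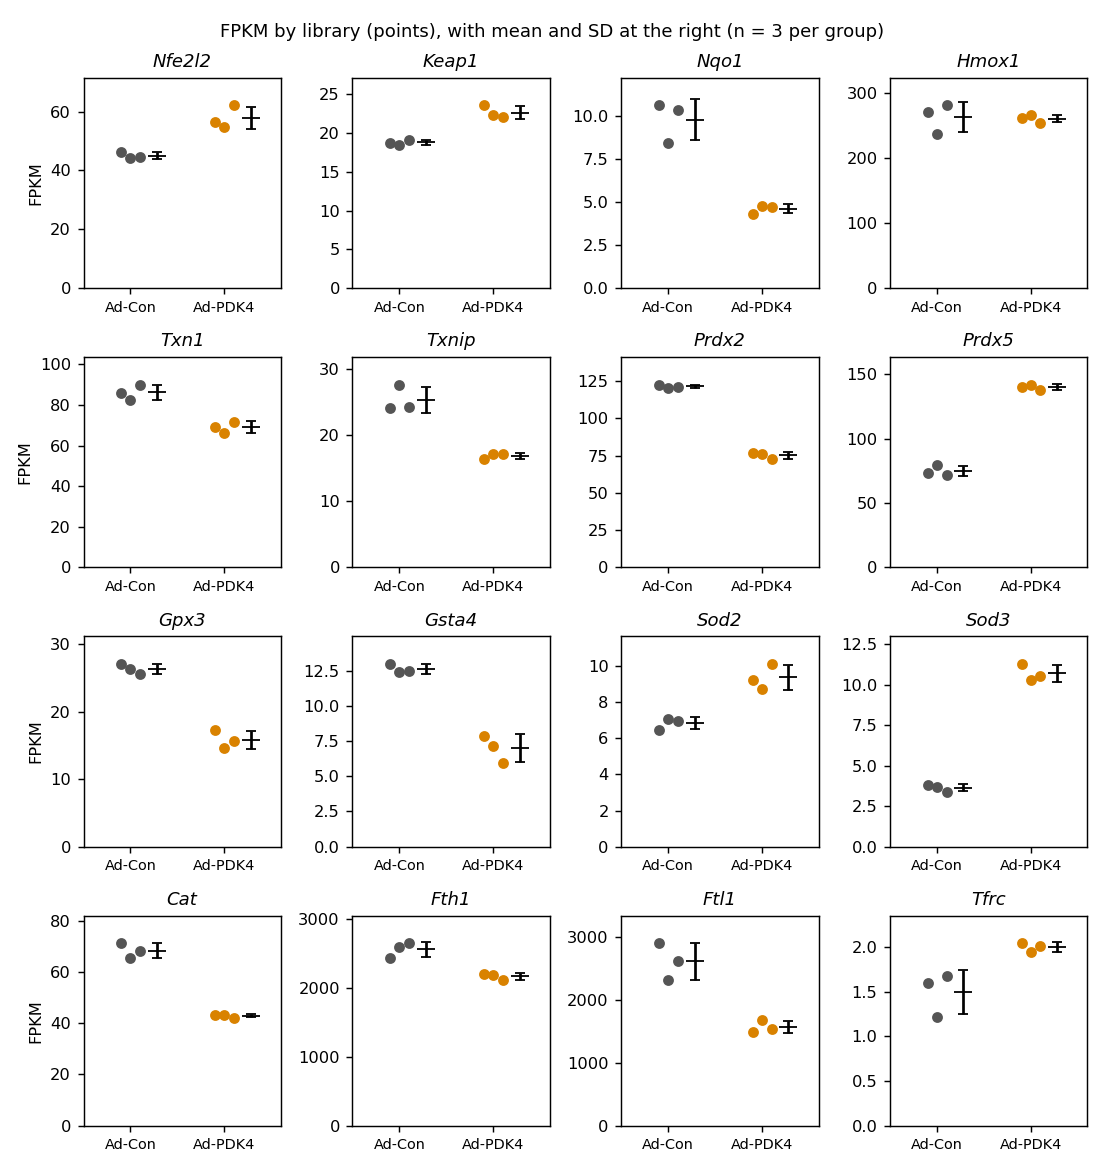
FPKM of 16 of the 39 genes in each library (points), with the group mean and SD beside them (n = 3 per group) and axes from 0. The groups stand apart for every gene shown except Hmox1, and Sod3 and Nqo1 show the widest gaps relative to their level.

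Of 5 genes of the thioredoxin system, 2 fell (background 20.8%) and 3 did not pass the test. Txn1, the cytosolic thioredoxin, measured 86.1, 82.5 and 90.0 FPKM in Ad-Con and 69.1, 66.1 and 71.8 FPKM in Ad-PDK4. Every Ad-PDK4 library was below every Ad-Con library, and Txn1 fell by 0.32 on the log2 scale (SE 0.05, limma adjusted p = 0.00222). Txnip, its inhibitor, measured 24.1, 27.6 and 24.2 FPKM against 16.3, 17.1 and 17.1 FPKM. The groups stood apart here as well, and Txnip fell by 0.58 on the log2 scale (SE 0.07, limma adjusted p = 0.00031). The inhibitor and its target were thus both lower. Their log2 ratio, Txnip over Txn1, was -1.77 ± 0.168 in Ad-Con and -2.03 ± 0.0713 in Ad-PDK4 (SD, n = 3). The difference of -0.26 had p = 0.10 by an exact two-sided permutation test over 20 arrangements, which is the smallest p this design allows. The antisense gene Gm15441 lies opposite 19.4% of the Txnip exon bases but was at only 0.235 and 0.315 FPKM.

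The other thioredoxin genes did not pass the test. Txn2, the mitochondrial thioredoxin, measured 22.1, 18.6 and 21.2 FPKM in Ad-Con and 23.1, 26.6 and 22.7 FPKM in Ad-PDK4. Its groups did not overlap but the gap was narrow (log2 fold change 0.23, SE 0.09, limma adjusted p = 0.0695). Txnrd1, the cytosolic reductase, was at 38.9 ± 0.702 and 38.4 ± 0.972 FPKM, and Txnrd2, its mitochondrial counterpart, at 3.30 ± 0.146 and 3.53 ± 0.147 FPKM (SD, n = 3). Neither reductase passed the test (limma adjusted p = 0.771 and 0.392), with log2 fold changes of -0.02 ± 0.05, which turned positive with TPM, and 0.09 ± 0.08 (SE).

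Among the 6 peroxiredoxins, 3 fell (background 20.8%), 1 rose (background 21.8%) and 2 did not pass the test. Prdx5, found in mitochondria, peroxisomes and cytosol, measured 73.6, 79.4 and 72.1 FPKM in Ad-Con and 140, 142 and 138 FPKM in Ad-PDK4. The separation was wide, and the rise of 0.90 on the log2 scale (SE 0.05, limma adjusted p = 7.62e-06) amounted to 1.87-fold. Trmt112, which lies opposite 19.1% of the Prdx5 exon bases, rose by only 0.18 on the log2 scale (41.6 ± 0.618 and 47.1 ± 3.32 FPKM, SD, n = 3). Prdx2, an abundant cytosolic member, moved the other way, at 123, 121 and 121 FPKM against 77.0, 76.0 and 72.5 FPKM. It fell by 0.69 on the log2 scale (SE 0.04, limma adjusted p = 1.53e-05), and the order of the pair was reversed between the groups, Prdx2 being the higher in Ad-Con and Prdx5 in Ad-PDK4. For Prdx2, 38.3% of the longest transcript is shared in 50-base stretches with transcripts of other genes, and for Prdx5 15.4%.

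Prdx1, cytosolic, and Prdx3, mitochondrial, showed smaller falls. Prdx1 measured 83.4, 79.6 and 87.5 FPKM against 64.8, 63.4 and 71.8 FPKM, and Prdx3 44.8, 45 and 46.8 FPKM against 35.5, 35.1 and 37.8 FPKM. Neither gene had overlapping groups, and both fell by 0.33 on the log2 scale (limma adjusted p = 0.00443 and 0.00133). Prdx4, of the endoplasmic reticulum, was at 39.3 ± 2.29 and 35.4 ± 1.45 FPKM, and Prdx6, which also has a phospholipase activity, at 42.9 ± 1.70 and 40.3 ± 1.17 FPKM (SD, n = 3). These 2 did not pass the test. The summed level of the 6 peroxiredoxins was 408 ± 3.90 and 394 ± 3.21 FPKM (SD, n = 3).

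The glutathione peroxidases fell or did not pass the test. Gpx3, the secreted form, measured 27.1, 26.3 and 25.6 FPKM in Ad-Con and 17.3, 14.6 and 15.6 FPKM in Ad-PDK4. The groups lay well apart, and Gpx3 fell by 0.73 on the log2 scale (SE 0.07, limma adjusted p = 0.000123). Gpx4, which reduces lipid peroxides and guards against ferroptosis, measured 338, 352 and 336 FPKM against 294, 288 and 279 FPKM. Gpx1, the main cytosolic form, measured 120, 132 and 127 FPKM against 108, 107 and 104 FPKM. Both were lower in every Ad-PDK4 library, each falling by 0.25 on the log2 scale (limma adjusted p = 0.00286 and 0.00511). For Gpx4, 73.5% of the longest transcript is shared with other genes, and the related pseudogene Gpx4-ps2 (121 ± 1.51 and 95.5 ± 4.60 FPKM) fell as well, by 0.34 on the log2 scale. Gpx7 and Gpx8, of the endoplasmic reticulum, were at 36.0 ± 3.02 and 79.9 ± 4.65 FPKM in Ad-Con and at 33.9 ± 2.17 and 92.9 ± 11.8 FPKM in Ad-PDK4, without passing the test.

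Of 3 superoxide dismutases, 2 rose (background 21.8%) and 1 fell (background 20.8%). Sod3, the secreted enzyme that binds the matrix, measured 3.81, 3.70 and 3.39 FPKM in Ad-Con and 11.3, 10.3 and 10.6 FPKM in Ad-PDK4. The Ad-PDK4 libraries were all far above the others, and the rise of 1.54 on the log2 scale (SE 0.07, limma adjusted p = 3.1e-06) was the largest of the 39 genes and amounted to 2.95-fold. Sod2, the mitochondrial manganese enzyme, measured 6.47, 7.10 and 6.96 FPKM against 9.25, 8.75 and 10.1 FPKM. It was also higher in all 3 Ad-PDK4 libraries, by 0.45 ± 0.07 (SE) on the log2 scale (limma adjusted p = 0.00218). Sod1, the cytosolic copper and zinc enzyme, was far more abundant, at 61.5, 73.8 and 69.6 FPKM against 59.6, 54.5 and 53.9 FPKM. Its groups came close to each other, and its fall of 0.28 on the log2 scale (SE 0.08, limma adjusted p = 0.0187) no longer passed the test without Ad-Con replicate 2 or 3 or Ad-PDK4 replicate 2 or 3 (adjusted p 0.0512 to 0.0627).

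Catalase, the peroxisomal enzyme that breaks down hydrogen peroxide, followed Sod1 in direction. Cat measured 71.2, 65.5 and 68.0 FPKM in Ad-Con and 43.3, 43.1 and 42.2 FPKM in Ad-PDK4. The Ad-PDK4 values were tightly grouped below the others, and Cat fell by 0.67 on the log2 scale (SE 0.05, limma adjusted p = 3.12e-05). The summed level of the 3 dismutases and catalase was 147 ± 3.62 and 119 ± 3.89 FPKM (SD, n = 3), most of it from Sod1 and Cat.

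Of the 5 glutathione S-transferases, which couple glutathione to electrophiles, 2 fell (background 20.8%) and 3 did not pass the test. Gsta4, whose product clears the lipid peroxidation aldehyde 4-hydroxynonenal, measured 13.0, 12.4 and 12.5 FPKM in Ad-Con and 7.90, 7.13 and 5.94 FPKM in Ad-PDK4. It fell by 0.85 on the log2 scale with no overlap (SE 0.10, limma adjusted p = 0.000377). Gstm1 was abundant, at 333, 339 and 336 FPKM against 229, 239 and 220 FPKM. It fell by 0.55 on the log2 scale (SE 0.05, limma adjusted p = 6.39e-05), whereas its neighbour Gstm2, 25801 bases away on chromosome 3, was at 95.7 ± 6.27 and 89.7 ± 3.11 FPKM and did not pass the test (limma adjusted p = 0.257). Gstm1 shares 45.1% and Gstm2 22.7% of the longest transcript with other genes, so reads could be split between relatives. Gstt1 was at 8.16 ± 1.03 and 8.63 ± 0.519 FPKM and Gstp1, 70.5% of which is shared, at 151 ± 1.29 and 155 ± 15.0 FPKM.

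The metallothioneins, small cysteine-rich proteins that hold zinc and copper, are neighbours on chromosome 8, 5513 bases apart. Mt1 measured 208, 251 and 238 FPKM in Ad-Con and 200, 173 and 187 FPKM in Ad-PDK4. The lowest Ad-Con library came near the highest Ad-PDK4 library, and the fall of 0.31 on the log2 scale (SE 0.08, limma adjusted p = 0.0163) did not pass the test without Ad-Con replicate 3 (adjusted p = 0.057). Mt2 measured 29.2, 25.0 and 30.9 FPKM against 29.2, 21.2 and 31.0 FPKM. Its groups overlapped, and no difference passed the test (log2 fold change -0.08, SE 0.15, limma adjusted p = 0.719). Mt2 shares 69.5% of its longest transcript with other genes and lies opposite Gm45774 for 73.5% of its exon bases.

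Ferritin transcripts were the most abundant of the 39 genes. Fth1, the heavy chain that oxidises iron, measured 2440, 2599 and 2653 FPKM in Ad-Con and 2203, 2185 and 2116 FPKM in Ad-PDK4, with no overlap. It fell by 0.24 on the log2 scale (SE 0.05, limma adjusted p = 0.00554), but rose by 0.16 under quantile normalization (limma adjusted p = 0.0238), so its direction depends on the scaling. Ftl1, the light chain, measured 2909, 2321 and 2624 FPKM against 1489, 1679 and 1541 FPKM. Its groups stood apart, and Ftl1 fell by 0.73 on the log2 scale (SE 0.09, limma adjusted p = 0.00038). All of the longest Ftl1 transcript is shared with other transcripts, so its reads could be split with pseudogenes, of which Ftl1-ps1 (54.8 ± 8.63 and 34.5 ± 3.03 FPKM) also fell. Tfrc, the receptor that brings in iron on transferrin, was low at 1.6, 1.22 and 1.68 FPKM against 2.04, 1.94 and 2.01 FPKM. Its groups did not overlap, yet its log2 fold change of 0.41 ± 0.14 (SE) just missed the threshold (limma adjusted p = 0.0509).

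**Figure D3:**
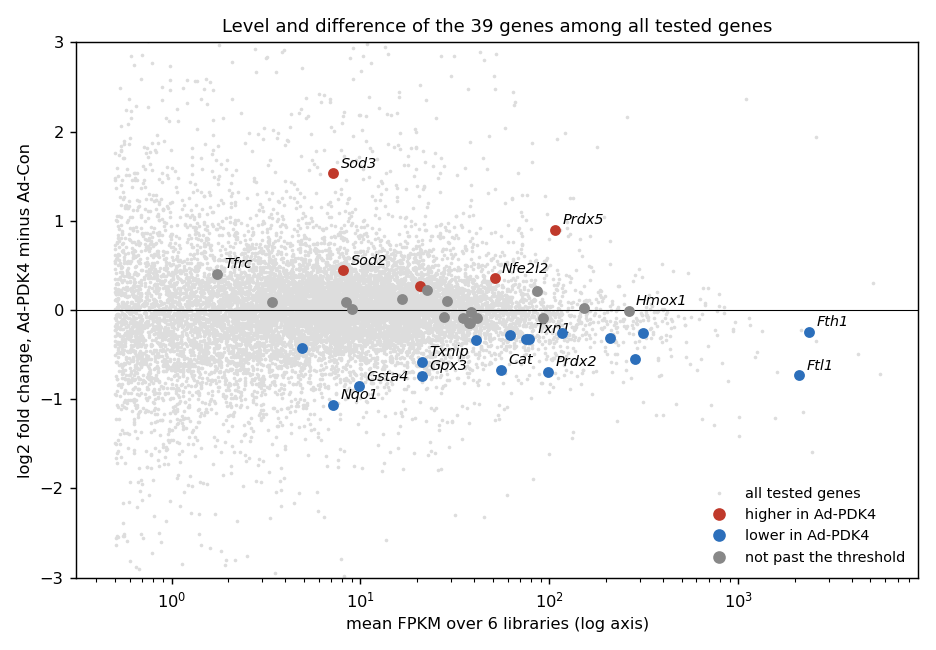
Mean FPKM over the 6 libraries (log axis) against log2 fold change for all 13423 tested genes (grey) and the 39 genes (coloured by call), with 136 genes beyond the limits of 3 on the log2 axis left out. The ferritin genes Fth1 and Ftl1 lie at the far right, and the 5 higher genes lie between the levels of Sod3 and Prdx5.

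Summed over the 39 genes, the level went from 7823 ± 231 FPKM in Ad-Con to 6085 ± 111 FPKM in Ad-PDK4 (SD, n = 3), a change of -22.2%. Ferritin and Tfrc made up most of this sum, with a change of -27.9%. The sums were not computed under quantile normalization, where Fth1 rose. Without Fth1 and Ftl1 the sum was 2641 ± 38.6 and 2348 ± 20.8 FPKM, a change of -11.1%. As a share of all FPKM, the 39 genes took 2.39 to 2.58% in the Ad-Con libraries and 1.97 to 2.03% in the Ad-PDK4 libraries.

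A wider list of redox and iron genes, 143 entries with Nnt under 2 identifiers, sets these values in context. Of its entries, 112 passed the filter, 29 were higher in Ad-PDK4 (background 21.8%) and 43 were lower (background 20.8%). These counts include 3 genes that passed the filter through 1 group alone, Lcn2 among the higher and Gsta3 and Alox12 among the lower. Of 8 tested partners and competitors of NRF2, 4 were higher (background 21.8%) and 1 was lower (background 20.8%). The small MAF genes Maff (14.9 ± 0.382 and 25.4 ± 2.03 FPKM) and Mafk (14.9 ± 0.546 and 24.6 ± 1.84 FPKM) rose, by 0.77 and 0.72 on the log2 scale (limma adjusted p = 7.69e-05 and 0.000103). Bach1, the repressor that competes with NRF2 for the same promoter letters, measured 16.3, 16.8 and 15.3 FPKM against 10.4, 10.7 and 10.3 FPKM. It fell by 0.62 on the log2 scale (limma adjusted p = 0.000104). Of 13 further enzymes of the NRF2 kind, 2 were higher (background 21.8%) and 6 lower (background 20.8%). Among them were Akr1b3 (log2 fold change 0.94) and Aldh3a1 (log2 fold change -1.12). These genes of the NRF2 axis were singled out after their values had been seen.

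Next to Txnip, the wider list holds its relatives and the factors that read its promoter. Arrdc4, an arrestin-domain relative of Txnip, measured 2.64, 2.88 and 2.73 FPKM in Ad-Con and 6.35, 6.20 and 7.02 FPKM in Ad-PDK4. It rose by 1.22 on the log2 scale (SE 0.08, limma adjusted p = 1.9e-05) while Txnip fell. The relatives Arrdc2 and Arrdc3 fell by 0.47 and 0.79 on the log2 scale, and Mlx and Mlxip rose by 0.40 and 0.42 (limma adjusted p from 0.000719 to 0.00966 over these 4 genes). Nlrp3, the inflammasome sensor that TXNIP can bind, had 0 to 4 reads in each library and was not tested. Mlxipl, of the same group, had 5, 8 and 6 reads in Ad-Con and 27, 34 and 34 in Ad-PDK4, and was not tested either.

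Among genes of cystine uptake and glutathione turnover, 4 were higher (background 21.8%) and 3 lower (background 20.8%) of 10 tested. Chac1, which degrades glutathione inside the cell, measured 7.56, 5.64 and 6.47 FPKM against 23.2, 24.7 and 22.2 FPKM. It rose by 1.83 on the log2 scale (SE 0.10, limma adjusted p = 8.27e-06). Ggt5, an enzyme that cleaves glutathione conjugates outside the cell, measured 7.27, 8.5 and 6.31 FPKM against 1.66, 1.53 and 1.48 FPKM. It fell by 2.16 on the log2 scale (SE 0.12, limma adjusted p = 6.79e-06). Of the other glutathione peroxidases and transferases, 13 of 21 were tested, and 9 were lower, Gsta3 among them, and 0 higher by limma (background 20.8% and 21.8%). Among the 9, Mgst3, a membrane-bound member, measured 24.2, 26.3 and 28 FPKM against 6.31, 8.18 and 8.21 FPKM, a fall of 1.78 on the log2 scale (limma adjusted p = 1.25e-05). Gsta3 was low, at 1.75, 1.35 and 1.24 FPKM against 0.493, 0.342 and 0.427 FPKM (log2 fold change -1.57), and passed the filter through Ad-Con alone. Among enzymes that supply NADPH, 1 was higher (background 21.8%) and 5 were lower (background 20.8%) of 9 tested. Idh2 of the mitochondrion was at 74.5 ± 3.46 and 33.0 ± 2.58 FPKM (log2 fold change -1.18, limma adjusted p = 8.44e-06). This gene was singled out after its value was seen.

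Of 18 iron genes tested outside the 39, 6 were higher in Ad-PDK4, Lcn2 among them (background 21.8%), 5 were lower (background 20.8%) and 7 did not pass the test, among the last the iron-responsive regulators Ireb2 and Aco1. Slc40a1, ferroportin, the exporter of iron, measured 5.67, 5.92 and 5.87 FPKM in Ad-Con and 1.35, 1.27 and 1.40 FPKM in Ad-PDK4. It fell by 2.04 on the log2 scale with no overlap (SE 0.09, limma adjusted p = 1.48e-06), a level 4.34-fold lower. Cp, ceruloplasmin, the oxidase that works with ferroportin, measured 8.08, 9.23 and 7.63 FPKM against 21.1, 19.1 and 26.8 FPKM. It rose by 1.40 on the log2 scale (SE 0.13, limma adjusted p = 0.000165). Lcn2, which binds iron-loaded siderophores, had no read in any Ad-Con library and 100, 61 and 160 reads in Ad-PDK4. Set against 3 reads in each Ad-Con library, its mean of 2.06 ± 0.717 FPKM was at least 33.5-fold higher. It passed the filter through Ad-PDK4 alone, so no p-value is given. Slc11a2, the importer DMT1, at 7.54 ± 0.480 and 16.7 ± 1.13 FPKM, and Steap3, an endosomal ferrireductase, at 43.6 ± 0.745 and 15.0 ± 1.19 FPKM, moved in opposite directions, by 1.14 and -1.53 on the log2 scale (limma adjusted p = 1.57e-05 and 1.76e-06; both singled out after their values were seen).

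**Figure D4:**
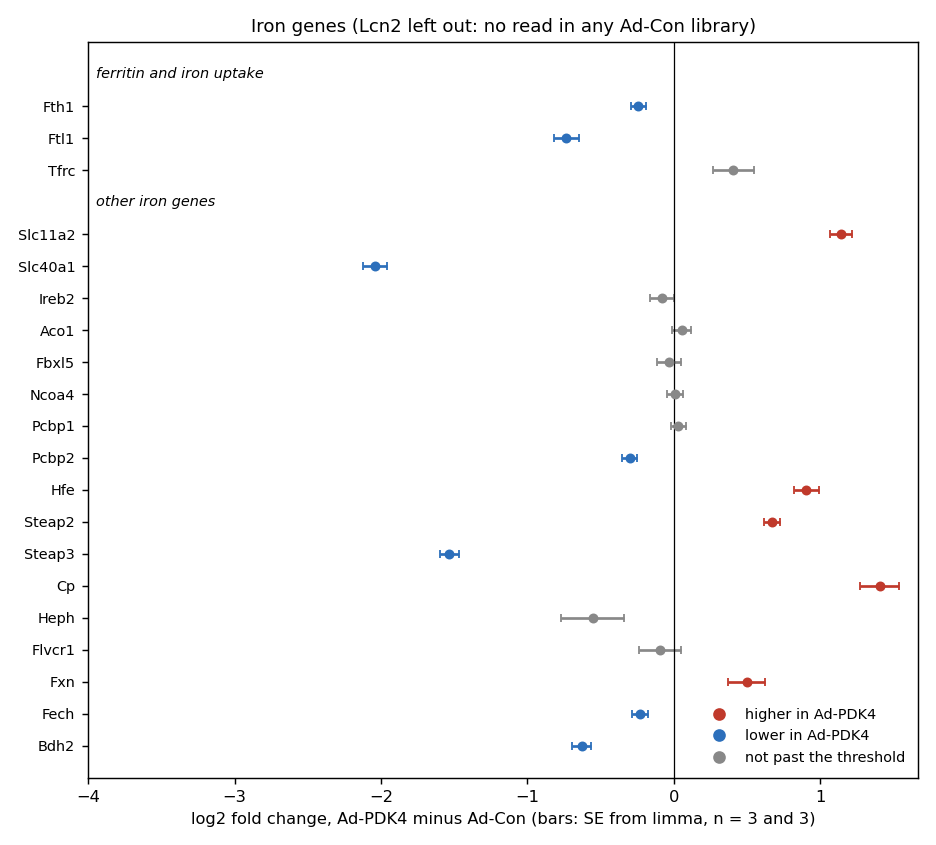
Log2 fold change, Ad-PDK4 minus Ad-Con, of the ferritin genes, Tfrc and the tested iron genes of the wider list, with bars for the limma SE (3 libraries per group). Slc40a1 and Steap3 lie farthest to the left and Cp and Slc11a2 farthest to the right, and Lcn2 is left out because no Ad-Con library held a read of it.

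The last named genes of the wider list touch lipid peroxidation. Gch1, which makes the radical-trapping cofactor tetrahydrobiopterin, measured 1.34, 1.25 and 1.07 FPKM against 2.64, 3.11 and 3.03 FPKM and rose by 1.2 on the log2 scale (limma adjusted p = 0.000216). Alox12, a lipoxygenase, measured 1.65, 1.23 and 1.13 FPKM against 0.309, 0.448 and 0.377 FPKM (log2 fold change -1.58). It had 23 to 34 reads in the Ad-PDK4 libraries and passed the filter through Ad-Con alone, so no p-value is given.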

How the data were processed

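RNA-seq of 6 libraries (3 Ad-Con, 3 Ad-PDK4) was deposited as 1 table of FPKM per gene. The submitters' processing notes name CASAVA 1.8, fastp, HISAT2 2.0.5, featureCounts 1.5.0-p3, DESeq2 1.20.0 and the build GRCm39. The deposited coordinates equalled those of GENCODE release M21 (GRCm38) for 98.3% of 54409 matched genes and for 37 of the 39 genes, and GRCm38 was used. The deposited FPKM were scaled by the authors with size factors: FPKM times gene length gave whole reads (tolerance 0.01) for 100% of values, and the library sizes behind them were proportional to median-of-ratios size factors. FPKM uses the summed exon length, so a gene with long rare exons reads low. The labels name a SMARTER kit and the study's methods another, and strand setting and treatment of multi-mapped reads are not given in the sources used here.

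Log2(FPKM + 0.1) was tested for 13423 genes with a mean of at least 0.5 FPKM, with limma 3.58.1 (R 4.3.3, trended and robust variances) and Benjamini-Hochberg adjustment over all of them, at 0.05. Fold changes are on that scale and understate low genes. The code was tested on simulated data. Settings varied were the pseudocount, the filter, the scaling (TPM, median of ratios, without mitochondrial genes, quantile), the variance model, limma-voom on recovered reads, a replicate block and leaving out each library. By rule, Pdk4, Nlrp3 and the 5 largest rises and falls called in the wider list were named outside the 39. Other genes outside the 39 were named as markers, as overlapping or related genes, or after their values had been seen. The 39 genes and lists were chosen with earlier results of these data known. Intervals are SDs over libraries, and 1 read was worth 0.0453 to 0.0571 FPKM in a gene of 1 kb.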

Additional observations from a re-analysis of the deposited data

How the results depend on the processing

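Among the 17 alternatives, median of ratios repeats the scaling of the deposited FPKM and is no separate check. Of the 22 genes called among the 39, 18 kept direction and call in all 17 alternatives, and Gss in the 16 that could be run, since its mean lay under 5 FPKM. The exceptions were Fth1, which turned to 0.16 (log2) under quantile normalization, Sod1, and Mt1. Genes without a call changed sign in places: Hmox1 to 0.032 with TPM, 0.0695 with quantile normalization and -0.0818 to 0.0405 when each library was left out, Gclm to -0.0476 with quantile normalization and -0.0396 to 0.0799 when each library was left out, and Txnrd1 to 0.0221 with TPM. Leaving out each library gave -0.0351 to 0.00089 for Txnrd1, -0.0453 to 0.0937 for Gstp1 and -0.183 to 0.0895 for Mt2. The count of the 39 genes lower by a fold of at least 2 was 0 with a pseudocount of 1, and 0 to 1 when each library was left out (0 without Ad-Con replicate 1). The count of higher genes was 8 instead of 5 with limma-voom on the recovered reads, where Txn2, Gpx8 and Tfrc also passed the test. That setting called 3221 of all 13423 tested genes higher, against 2928 in the main fit. What caused the larger count was not tested. The replicate numbers did not pair the samples (correlations of same-numbered libraries -0.046, -0.031 and -0.0013). With a replicate block 6 of the 39 genes were higher, Gpx8 being added (log2 fold change 0.21, limma adjusted p = 0.0492), and 17 were lower. Over all 13423 tested genes, the block called 2759 higher and 2626 lower, against 2928 and 2798 in the main fit. With the block, the log2 ratio of Txnip to Txn1 differed by -0.26. With 3 libraries a group, a Tfrc difference of this size sat at the threshold, passing it under 6 alternatives. Nlrp3 and Myh11 had 10 reads or fewer in every library and were not tested.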

Other observations

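The report does not describe sources of superoxide and nitric oxide. Of 13 such genes, 9 did not pass the filter (41109 of all 54532 genes did not), Nox1, Cybb and Nos1 among them. Of the 4 tested, Xdh, xanthine oxidoreductase, rose from 64.4 ± 1.31 to 94.2 ± 1.67 FPKM (SD, n = 3; log2 fold change 0.55, limma adjusted p = 4.78e-05), Cyba rose by 0.20 on the log2 scale and Nox4 fell by 0.38. Nos2, the inducible nitric oxide synthase, had no read in any Ad-Con library and 59, 44 and 84 reads in Ad-PDK4, at least 19.8-fold higher against 3 reads in each Ad-Con library. It did not pass the filter and was not tested. The sestrins, which link stress to growth signalling, moved in opposite directions: Sesn1 fell by 1.38 and Sesn3 by 0.94 on the log2 scale, while Sesn2 rose by 0.31 (limma adjusted p = 1.37e-06, 7.63e-06 and 0.00916). Slc7a11, the cystine carrier, stayed under the filter at 0.347 and 0.398 FPKM. These genes were singled out after their values had been seen.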
